A study of Mus musculus with 9 samples.

Results

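Cytosolic ribosomal proteins are the protein building blocks of the ribosomes that translate nuclear-encoded mRNA. Their genes were selected on the array by name: a probe set counted where it names a single gene whose symbol begins with Rpl or Rps and a digit, or is Rpsa, Rplp0, Rplp1 or Rplp2. The S6 kinases, Rps19bp1 and symbols marked as pseudogenes were left out. This gave 49 genes of 18193 with a probe set of their own, 26 of the large subunit and 23 of the small subunit, and 105 probe sets of 45037 that are not controls. No measured value entered that selection. Checked against the RefSeq gene table, 1 of them, Rps4l, is listed as a transcribed pseudogene and not as a protein-coding gene.

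RNA of CD11b+ splenocytes from C57BL/6 mice was hybridised to Affymetrix MOE430 arrays. CD11b is an integrin of myeloid cells, and the cells were picked magnetically from the adherent part of the spleen. The HighThreat group comprised 6 mice exposed repeatedly to social threat, with 1 array per animal. The LowThreat group comprised 6 mice held under non-threatening conditions and pooled by 2, which gave 3 arrays named here 1-2, 3-4 and 5-6. All 9 arrays share strain and cell selection. The labels give no age, no allele and no further agent. The question of the design was whether expression differs between those conditions. Each HighThreat array thus carries the variation of 1 animal, whereas a LowThreat array is already an average.

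A ribosome has a small subunit, which holds and decodes the mRNA, and a large subunit, which joins amino acids and passes the new chain out through a tunnel. Every mature ribosome carries about one copy of most of these proteins, so cells tend to make them in step. Their mRNAs start with a C and a tract of pyrimidines, the 5′ terminal oligopyrimidine (TOP) motif, through which the kinase mTORC1 and the RNA-binding protein Larp1 control their translation. Production of rRNA and ribosomal proteins is known to be high in growing and dividing cells, lymphoid and myeloid cells included, and to be promoted by the transcription factor Myc.

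Ribosomal protein mRNAs were mostly lower in HighThreat cells, in most genes by a small amount. Of the 46 genes with signal above the filter value of 2.66 on the log2 scale, 31 were called lower, 2 were called higher and 13 did not pass the test, a Benjamini-Hochberg adjusted p under 0.05 over all 13078 genes tested. For comparison, 22.0% of all tested genes were called lower and 23.8% higher, 45.8% in all. The share of ribosomal protein genes called lower was 67.4%. Their median difference, HighThreat minus LowThreat, was -0.17, a change of -11.3%, against +0.03 over all tested genes. The 6 HighThreat values all lay below the 3 LowThreat values in 31 of the 46 genes, and all lay above them in 1, where 20.3% of all tested genes separated downward and 21.5% upward, 41.8% in all. Rps16, Rpl39l and Rpl3l stayed under the filter value and were not tested. Rpl39l and Rpl3l are paralogs known mainly from testis and from striated muscle.

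**Figure D1:**
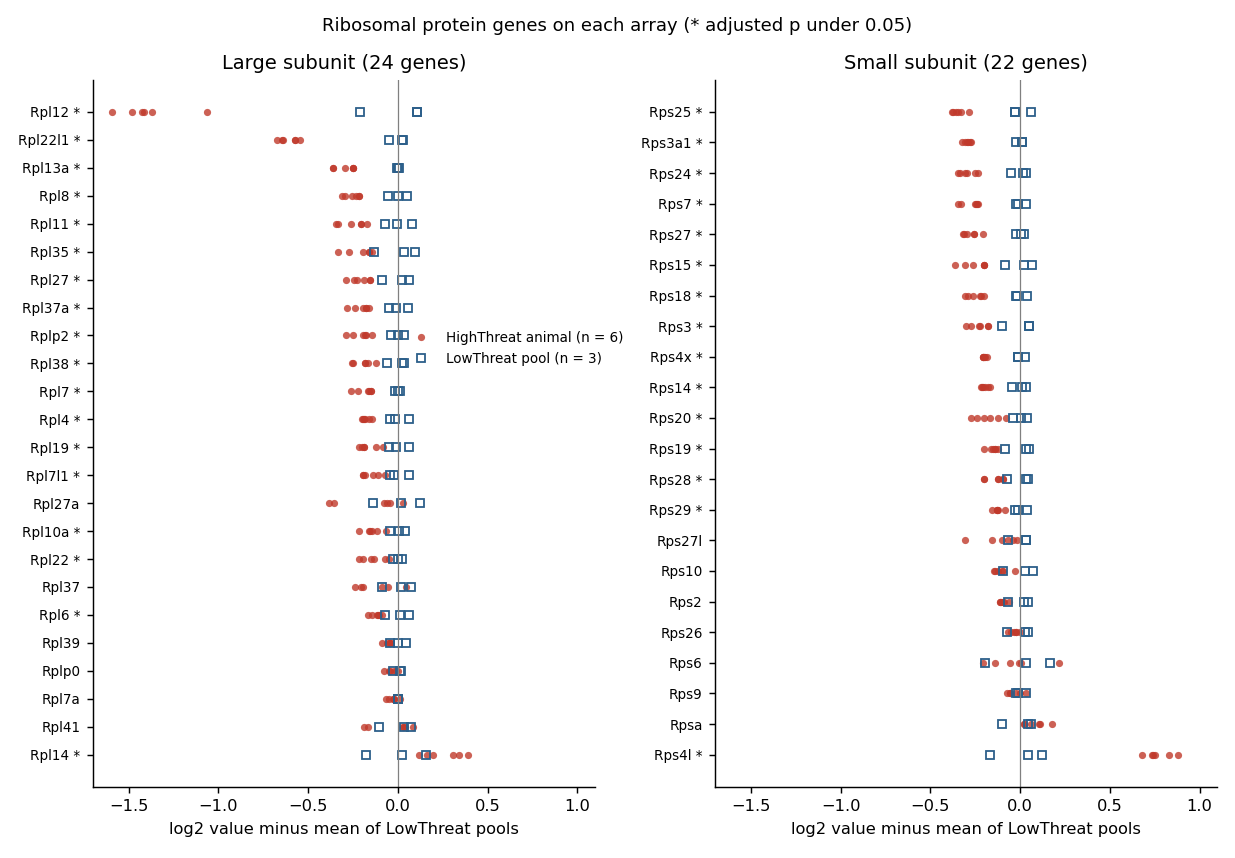
Log2 value of each tested ribosomal protein gene on every array, minus the mean of the LowThreat pools, with the 24 large subunit genes in one panel and the 22 small subunit genes in the other. Filled points are the 6 HighThreat animals, open squares the 3 LowThreat pools, and an asterisk marks an adjusted p under 0.05; most rows have their points left of their squares, while Rps4l and Rpl14 stand to the right.

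Both subunits moved in this way. In the large subunit 17 of 24 genes were called lower and 1 higher, with a median of -0.17, and in the small subunit 14 of 22 were called lower and 1 higher, with a median of -0.17 (-10.9%). Averaged over its 24 genes, the large subunit had log2 values of 9.89, 9.89, 9.85, 9.81, 9.81 and 9.86 in HighThreat animals 1 to 6, against 10.09, 10.07 and 10.03 in LowThreat pools 1-2, 3-4 and 5-6. The group means were 9.85 ± 0.039 (SD, n = 6) and 10.06 ± 0.031 (SD, n = 3), a difference of -0.21. Averaged over its 22 genes, the small subunit had 10.34, 10.34, 10.33, 10.29, 10.31 and 10.34 in HighThreat animals, against 10.48, 10.48 and 10.40 in LowThreat pools. Those means were 10.33 ± 0.024 (SD, n = 6) and 10.45 ± 0.042 (SD, n = 3), a difference of -0.13. In both subunits the groups did not overlap, HighThreat animal 4 had the lowest mean of its group and LowThreat pool 5-6 the lowest of its own. Among the 31 genes called lower, HighThreat animal 4 was the lowest HighThreat array in 16 and LowThreat pool 5-6 the lowest LowThreat array in 18. Without LowThreat pool 1-2, which had the highest means, 11 large subunit genes were called lower in place of 17.

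**Figure D2:**
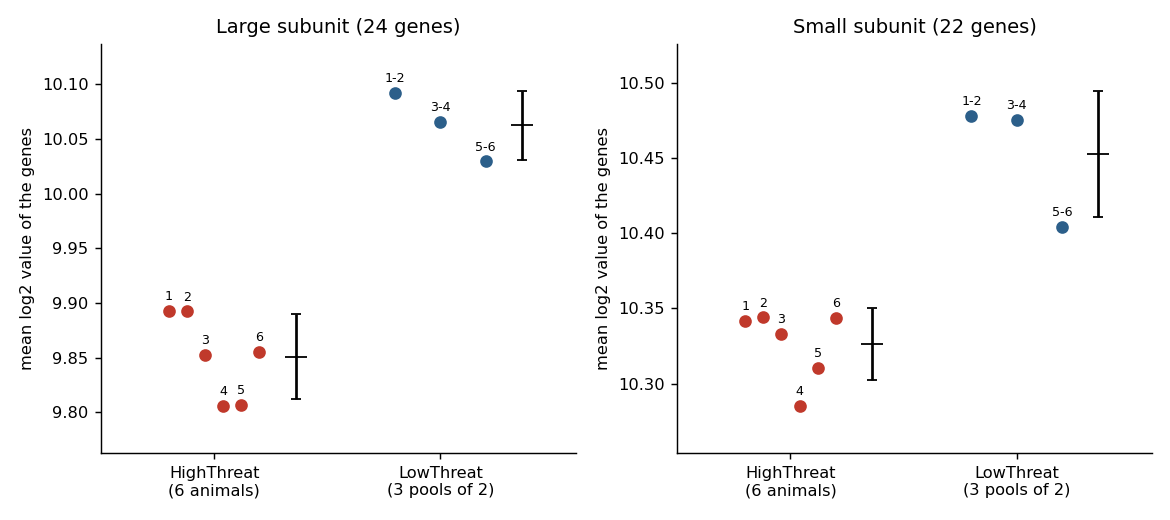
Mean log2 value over the 24 large subunit genes and over the 22 small subunit genes, with 1 point per array. The axes do not start at 0; points are labelled by animal or pool number, and the bars give mean ± SD of 6 HighThreat animals and of 3 LowThreat pools. All HighThreat points lie below all LowThreat points in both panels.

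Most calls came from strongly signalling genes. Of 35 ribosomal protein genes with a mean of at least 9, a limit set after the data were seen, 27 were called lower in limma and 0 higher (0 also at an unadjusted p under 0.05), with a median of -0.19, and 34 had a difference below 0. Among the other 715 tested genes with such a mean, 29.0% were called lower and 41.3% higher, and the median was 0.05. Of the 11 ribosomal protein genes under that limit, 4 were called lower and 2 higher. With the strong signals alone the subunit means differed by -0.19 for 18 large and by -0.16 for 17 small subunit genes. The subunit means lay closer together here than over all genes; that they differ was not tested.

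The P-stalk is the arm of the large subunit that recruits elongation factors; Rplp0 anchors it, Rplp1 and Rplp2 form its tip and Rpl12 lies at its base. Rpl12 gave the largest difference of all ribosomal protein genes. Its log2 values ran from 3.54 through a median of 3.71 to 4.07 in the 6 HighThreat animals, against 5.24, 4.93 and 5.24 in the 3 LowThreat pools. The groups stood far apart, with a difference of -1.39 (SE 0.105, adjusted p = 3.4e-07), although this probe set is dim. Rplp2 ran from 11.70 through 11.80 to 11.84 in HighThreat animals, against 12.02, 11.95 and 11.99 in LowThreat pools, a difference of -0.21 (SE 0.048, adjusted p = 0.00327) with no overlap. Rplp0 differed by -0.033 (SE 0.043, adjusted p = 0.561), and its HighThreat values, 11.89 to 11.97, overlapped the LowThreat values of 11.98, 11.99 and 11.94. The tip protein Rplp1 has no probe set naming it alone.

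Rpl11 and Rpl5 bind the 5S rRNA and, when not built into ribosomes, restrain the p53 ligase Mdm2. Rpl11 ran from 10.41 through 10.52 to 10.58 in HighThreat animals, against 10.83, 10.75 and 10.68 in LowThreat pools. It was lower in HighThreat by -0.25 (SE 0.056, adjusted p = 0.00241), with the highest HighThreat animal below the lowest pool. Around the exit tunnel, through which the growing chain leaves, 4 of 5 tested proteins were called lower, with a median of -0.17: Rpl35 (-0.21), Rpl4 (-0.18), Rpl19 (-0.17) and Rpl22 (-0.14). The count was 1 without LowThreat pool 1-2 and 2 without pool 3-4. The fifth, Rpl39, a very short protein in the tunnel wall, gave -0.056 (adjusted p = 0.317).

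Rpl22 and its paralog Rpl22l1 belong to a pair in which Rpl22 is known in mice to repress Rpl22l1, and Rpl22 is needed for T cell development. Rpl22l1 ran from 8.98 through 9.05 to 9.11 in HighThreat animals, against 9.68, 9.60 and 9.67 in LowThreat pools. The difference of -0.61 (SE 0.047, adjusted p = 4.6e-07), a fold change of 0.656, was the second largest fall. Rpl22 ran from 11.09 through 11.16 to 11.25 in HighThreat animals, against 11.30, 11.33 and 11.28 in LowThreat pools. Both mRNAs were thus lower, although the call of Rpl22 (-0.14, SE 0.050, adjusted p = 0.0423) lies near the threshold and was lost without any one of HighThreat animals 1, 4, 5 and 6 or of the LowThreat pools, with adjusted p from 0.0608 to 0.121.

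Among the other large subunit proteins, Rpl13a, which in human monocytic cells can leave the ribosome to silence inflammatory mRNAs, had the next largest fall. Its values ran from 11.43 through 11.53 to 11.55 in HighThreat animals, against 11.80, 11.79 and 11.80 in LowThreat pools, a difference of -0.30 (SE 0.047, adjusted p = 2.1e-04) with well separated groups. Rpl8, which lies near the peptidyl transferase centre, gave -0.25 (adjusted p = 6.1e-04). Rpl7a and Rpl41 were at the other end, with -0.028 (adjusted p = 0.616) and -0.028 (adjusted p = 0.784). Rpl7a ran from 11.53 to 11.61 in HighThreat animals, against 11.59, 11.59 and 11.59 in LowThreat pools, so the LowThreat pools lay inside the HighThreat range. Apart from the paralog Rpl7l1, the other genes of this subunit called lower were Rpl27, Rpl37a, Rpl38, Rpl7, Rpl10a and Rpl6, with differences between -0.21 and -0.12. Rpl27a (-0.15, adjusted p = 0.240) and Rpl37 (-0.12, adjusted p = 0.168) did not pass the test.

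In the small subunit the largest fall was that of Rps25, a head protein that in yeast and human cells is needed for initiation at some internal ribosome entry sites. It ran from 6.71 through 6.73 to 6.81 in HighThreat animals, against 7.06, 7.15 and 7.06 in LowThreat pools, a difference of -0.35 (SE 0.046, adjusted p = 4.4e-05). Rps3a1, a protein of the platform, ran from 11.62 through 11.65 to 11.67 in HighThreat animals, against 11.95, 11.96 and 11.93 in LowThreat pools, a difference of -0.29 (SE 0.041, adjusted p = 7.0e-05). In neither gene did the groups overlap. Rps24 (-0.29, adjusted p = 1.9e-04), Rps7 (-0.27, adjusted p = 3.4e-04) and Rps27 (-0.27, adjusted p = 2.5e-04) followed, each without overlap. Rps24 and Rps7 are processing factors of the small subunit's rRNA, and Rps27 is a dim signal here, while a probe set shared by Rps27 and its copy Rps27rt gave -0.48 (adjusted p = 7.8e-05).

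The head of the small subunit had 8 of 9 tested genes called lower, with a median of -0.18, and 5 without LowThreat pool 3-4. Beside Rps25 these included Rps15 (-0.26, adjusted p = 0.00198), Rps18 (-0.25, adjusted p = 5.6e-04) and Rps3 (-0.23, adjusted p = 0.00273), which also forms part of the mRNA entry. Rps19, the first gene found mutated in Diamond-Blackfan anaemia in humans, ran from 10.94 through 10.99 to 11.02 in HighThreat animals, against 11.19, 11.17 and 11.05 in LowThreat pools, a difference of -0.15 (adjusted p = 0.0179). Without LowThreat pool 1-2 its adjusted p was 0.0833, and without pool 3-4 it was 0.0692. Among the 6 proteins at the entry and exit of the mRNA channel, 3 were called lower: Rps3, Rps14 (-0.20) and Rps28 (-0.14). Rps20 (-0.18) and Rps29 (-0.12) of the head were called lower too, and Rps10 (-0.11, adjusted p = 0.112) was the only head protein tested that did not pass. That value is from its brightest probe set. With each probe set tested on its own, 5 of the 6 naming Rps10 alone were called lower and the brightest was not. At the mRNA channel, Rps26 (-0.033), Rps2 (-0.096) and Rpsa did not pass. Rpsa, also known as a laminin receptor, was the only strongly signalling gene with a difference above 0, 0.083 (SE 0.055, adjusted p = 0.244), and its groups overlapped.

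Rps6 is the target of the S6 kinases downstream of mTORC1. On its own probe set Rps6 ran from 6.53 through 6.70 to 6.96 in HighThreat animals, against 6.91, 6.77 and 6.54 in LowThreat pools, and did not pass the test (-0.032, SE 0.094, adjusted p = 0.810). Rps9 stayed close to 0 as well (-0.030, adjusted p = 0.62). Of the genes whose loss causes Diamond-Blackfan anaemia in humans, 9 of 11 tested were called lower, with a median of -0.21, and 5 without LowThreat pool 3-4.

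The 2 genes called higher were both dim. Rps4l, a copy of the small subunit gene Rps4x, ran from 5.20 through 5.26 to 5.40 in HighThreat animals, against 4.56, 4.64 and 4.35 in LowThreat pools, a difference of 0.77 (SE 0.068, adjusted p = 1.3e-06) and a 1.70-fold higher value. Rps4x itself moved in the opposite direction (-0.20, adjusted p = 0.00126). Rpl14 ran from 3.95 through 4.08 to 4.22 in HighThreat animals, against 3.85, 3.99 and 3.66 in LowThreat pools, so the groups overlapped. Its difference of 0.25 (SE 0.079, adjusted p = 0.0203) was 0.16 without LowThreat pool 5-6 (adjusted p = 0.124). Of the remaining paralogs, Rpl7l1, a homologue of Rpl7 with a role in ribosome assembly, gave -0.15 (adjusted p = 0.0236). A nearly equally bright probe set of Rpl7l1 (mean 7.03 against 7.04) gave 0.005 (adjusted p = 0.954) when tested on its own. A dimmer one gave -0.054 (adjusted p = 0.491). Rps27l, a p53-inducible copy of Rps27, gave -0.11 (adjusted p = 0.173).

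Ribosomal protein genes have many processed pseudogenes with nearly the same sequence, and a signal cannot always be assigned to 1 locus. Probe sets of both kinds were therefore set side by side. Of 94 tested probe sets that name a single ribosomal protein gene, 61 were called lower and 3 higher, and of 91 that also name pseudogenes or predicted genes, 63 were called lower and 1 higher, a probe set of Rpl31 (0.27). Over every probe set tested on its own, 20.9% of 27022 were called lower and 18.9% higher. By their brightest shared probe set, 24 further genes without a probe set of their own could be read: 17 were called lower in limma and 0 higher (0 also at an unadjusted p under 0.05), with a median of -0.19. The 7 others did not pass the test.

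Those 24 genes fill gaps in the groups above. Rpl5, the partner of Rpl11, gave -0.21 (adjusted p = 0.00877) on a shared probe set. Rpl3, which lines the peptidyl transferase centre, gave -0.31 (adjusted p = 1.3e-04). Rpl36 had the largest fall of the 24, with 10.76 ± 0.076 in HighThreat animals (SD, n = 6) and 11.24 ± 0.052 in LowThreat pools (SD, n = 3), a difference of -0.48 (adjusted p = 4.5e-05). Rpl21 (-0.36), Rpl30 (-0.32) and Rps13 (-0.31) were also called lower. Rplp1, the missing tip protein of the stalk, gave -0.14 (adjusted p = 0.0451), while Rpl10 (-0.061) and Rpl28 (0.025) did not pass the test. At the exit tunnel, Rpl17 (-0.27) and Rpl23a (-0.18) were called lower. Rpl26 (-0.088, adjusted p = 0.219) and Rpl31 (-0.045, adjusted p = 0.428) of the tunnel were not. In the small subunit head, Rps12 (-0.10, adjusted p = 0.184) did not pass. Rps16, under the filter value on its own probe set, did not pass on its shared one either (-0.065, adjusted p = 0.383).

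For 10 genes both kinds of probe set were tested. Rpl12 gave -1.39 on its own dim probe set and -0.48 on the brightest shared one, so the direction held and the size did not. Rpl14 gave 0.25 on its own probe set and -0.31 on the shared one, and both were called. Rps6 gave -0.15 (adjusted p = 0.0255) and Rpl39 -0.20 (adjusted p = 0.0187) on shared probe sets, where their own did not pass. Rpl13a (-0.30 and -0.34), Rps7 (-0.27 and -0.32) and Rps25 (-0.35 and -0.21) were called lower on both. Which of these signals comes from the gene and which from a copy was not tested.

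**Figure D3:**
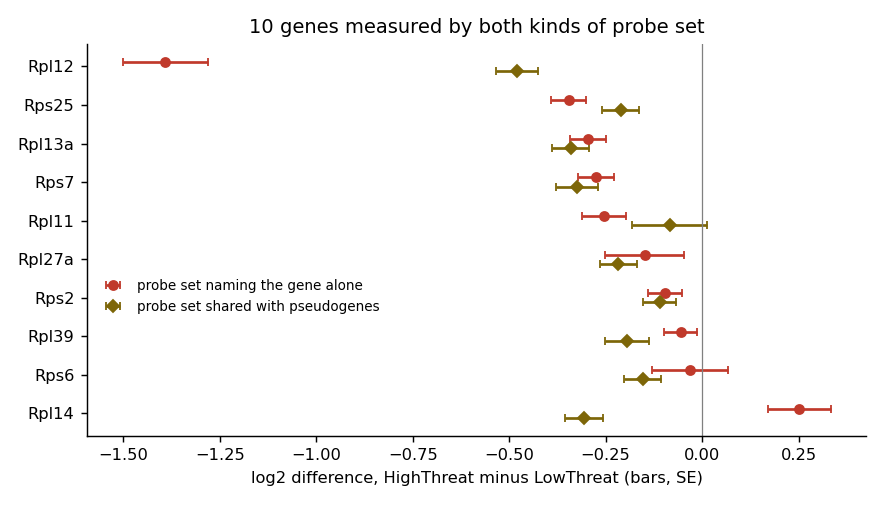
Log2 difference, HighThreat minus LowThreat, of the 10 genes tested both by a probe set naming the gene alone (circles) and by their brightest probe set shared with pseudogenes (diamonds), with bars of 1 SE. The shared probe sets of all 10 genes lie left of 0, whereas Rpl14 lies right of 0 on its own probe set.

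Several probe sets of 1 gene did not always tell the same. A group of 21 genes had 2 or more tested probe sets that name the gene alone. Of these, 8 had all called lower, 10 had some called lower and none higher, and Rps9 and Rps27l had none called. Rps3 alone was called in both directions, lower on its bright probe set and higher by 0.34 on a dim one at 3.93 ± 0.16 in HighThreat animals (SD, n = 6) and 3.60 ± 0.14 in LowThreat pools (SD, n = 3). Rpl41 gave -0.028 and -0.048 on its bright probe sets and -1.32 and -1.19 on dim ones. Rps24 was lower by -0.29 to -0.46 on its 4 bright probe sets and gave 0.12 and -0.91 on dim ones. Rpl13a gave -0.30 and -0.32 on its brightest probe sets, both called lower. Its weaker probe sets, with means of 8.08 and 8.56, gave 0.18 (adjusted p = 0.080) and -0.071 (adjusted p = 0.462).

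Pyrimidine tracts at the start site are what makes an mRNA a TOP mRNA, and a few start sites are shown because the genes moved together. Each sequence spans 60 bases before and 20 bases after the first transcribed base that RefSeq gives (mouse build GRCm38.p6), on the strand of the gene. Capitals mark runs of at least 8 pyrimidines and the ETS factor core CCGGAAG on either strand. Among the starts shown, only those of Rpl7a and Rps9 have a marked run that covers the first transcribed base. The runs of Rps25, Rps24 and Rps7 and the first run of Rpl13a end before it. The run of Rpl22l1 and the second run of Rpl13a begin after it. Of the 8 largest falls, Rpl12 and Rps27 are not shown. Over the same stretch Rpl12 holds no capitals, and Rps27 holds a run that covers its first transcribed base. The first start of Rps24, not shown, also has a run over its first transcribed base. Such a run is thus present in genes called lower as well. The first 6 genes shown were called lower and the last pair, Rpl7a and Rps9, did not pass the test. They lie at chr9:44407654-44407733 (Rps25, plus strand), chr3:28805448-28805527 (Rpl22l1, plus), chr7:45128726-45128805 (Rpl13a, minus), chr14:24490693-24490772 (Rps24, plus, the second of 2 starts), chr3:86142649-86142728 (Rps3a1, minus), chr12:28635934-28636013 (Rps7, minus), chr2:26910747-26910826 (Rpl7a, plus) and chr7:3703981-3704060 (Rps9, plus).
Rps25: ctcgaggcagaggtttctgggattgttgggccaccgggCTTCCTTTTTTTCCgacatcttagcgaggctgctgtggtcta
Rpl22l1: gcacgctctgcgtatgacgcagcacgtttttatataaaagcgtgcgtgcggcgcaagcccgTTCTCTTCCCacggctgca
Rpl13a: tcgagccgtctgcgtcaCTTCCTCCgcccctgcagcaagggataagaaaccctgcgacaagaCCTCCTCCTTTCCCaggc
Rps24: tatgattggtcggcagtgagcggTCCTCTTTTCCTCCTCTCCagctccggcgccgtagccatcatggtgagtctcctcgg
Rps3a1: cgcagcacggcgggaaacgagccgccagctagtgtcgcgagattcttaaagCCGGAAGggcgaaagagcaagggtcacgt
Rps7: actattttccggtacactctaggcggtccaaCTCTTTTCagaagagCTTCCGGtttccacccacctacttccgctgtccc
Rpl7a: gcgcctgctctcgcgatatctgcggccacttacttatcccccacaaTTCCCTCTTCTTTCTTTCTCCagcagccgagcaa
Rps9: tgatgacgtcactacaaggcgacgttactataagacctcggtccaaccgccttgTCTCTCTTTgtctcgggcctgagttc

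A tract of pyrimidines near the start site was common both in genes called lower and in the others. A RefSeq window of 250 bases before to 50 after the start was at hand for 43 of the 49 genes. A run of at least 8 pyrimidines within 30 bases of the start was present in 24 of the 43 (55.8%) and in 25.8% of all 27025 genes with a window, or 25.9% of tested genes. Among ribosomal protein genes called lower it was present in 14 of 26 (53.8%), and among the other tested ones in 9 of 14 (64.3%). An annotated start at a C followed by at least 4 pyrimidines, the strict TOP form, was found in 8 of 43 (18.6%), against 3.01% of all genes and 2.99% of tested genes. Rpl7a and Rps9 hold a run of at least 8 pyrimidines within 30 bases of the start, as do Rps25 and Rpl13a.

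The core CCGGAAG (or CTTCCGG on the other strand) was counted per gene, over all windows of the gene. It was found in 21 of 43 ribosomal protein genes (48.8%) and in 9.93% of all genes, or 18.2% of tested genes. It was present in 10 of 26 genes called lower (38.5%) and in 10 of 14 others that were tested (71.4%). The YY1 core AAGATGG (or CCATCTT) was found in 8 of 43 (18.6%), against 7.28% of all genes and 8.19% of tested genes. TATAAA (or TTTATA) was in 6 of 43 (14%), which lies between 15.7% of all genes and 9.55% of tested genes. The GC box GGGCGG (or CCGCCC) was in 25 of 43 (58.1%), which lies between 38.2% of all genes and 64.3% of tested genes. These are matches of letters on either strand, and the runs of pyrimidines were read on the strand of the gene.

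Other parts of the translation machinery were examined by lists. The counts of all lists that follow stand beside 22.0% of all tested genes called lower and 23.8% called higher. Of 24 tested elongation factor and other TOP genes, 17 were called lower and 3 higher, with a median of -0.20. Eef1b2, an exchange factor of elongation, fell by 0.38 (adjusted p = 2.7e-05), Eef2 by 0.17 (adjusted p = 0.00801) and the TOP gene Tpt1 by 0.16 (adjusted p = 0.0113), while Eef1a1, which delivers tRNAs, gave -0.046 (adjusted p = 0.435). Snhg12, a host gene of small nucleolar RNAs, fell by 1.23 (adjusted p = 6.6e-08) and the TOP gene Npm1, a nucleolar chaperone, by 0.62 (adjusted p = 9.4e-07). The count of genes called higher in that list, among them Vim (0.20), was 1 without LowThreat pool 5-6. Fau, which encodes a small subunit protein fused to a ubiquitin-like part, fell by 0.19 (adjusted p = 0.0173), a call that was lost without LowThreat pool 1-2 or 3-4. Rack1, a scaffold protein of the small subunit, has no probe set naming it alone.

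Initiation factors were lower in 12 of 22 and higher in 1, with a median of -0.22. Eif1a, which helps to find the start codon, fell by 0.73 (adjusted p = 2.5e-06) and Eif5, which triggers GTP hydrolysis there, fell by 0.54 (adjusted p = 1.4e-06). Genes of ribosome biogenesis and RNA polymerase I had the lowest median of the translation lists, -0.35, with 40 of 51 called lower and 2 higher. The rRNA processing factor Heatr1 fell by 1.13 (adjusted p = 2.1e-08), nucleolin, Ncl, by 0.95 (adjusted p = 9.2e-09) and the methyltransferase Fbl by 0.71 (adjusted p = 1.0e-07). Rrs1 and the polymerase I factor Taf1b were called higher, both by 0.47.

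Mitochondrial ribosomal proteins, which serve the separate ribosome of mitochondria, did not share the direction of the cytosolic ones. Of all tested genes 23.8% were called higher and 22.0% lower. Of the 76 mitochondrial ones tested, 27 (35.5%) were called higher and 10 (13.2%) lower, with a median of 0.09. The number called lower was 6 without LowThreat pool 1-2 or without pool 3-4. Mrpl52 gave 0.63 (adjusted p = 2.3e-06) and Mrps21 0.52 (adjusted p = 2.9e-06).

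**Figure D4:**
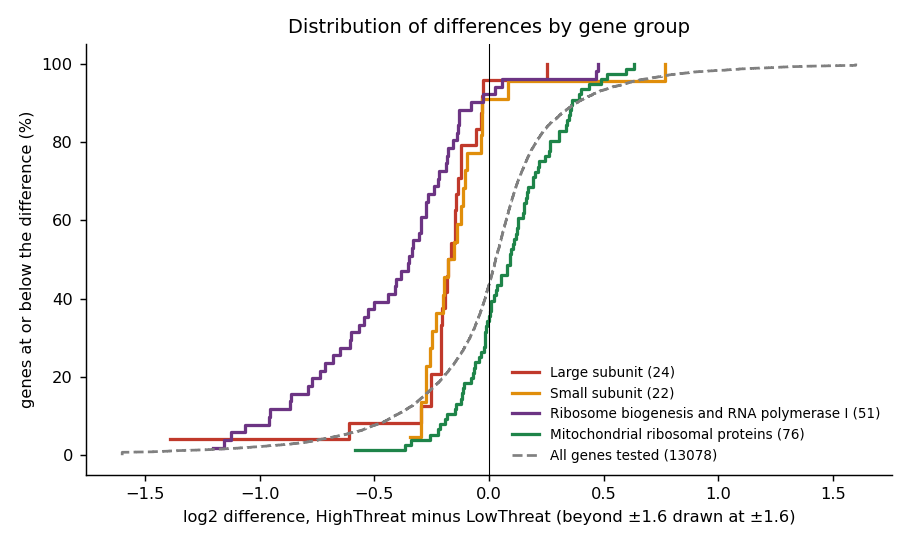
Cumulative share of genes, in percent, at or below a given log2 difference, HighThreat minus LowThreat, for large and small subunit genes, ribosome biogenesis genes, mitochondrial ribosomal protein genes and all tested genes. The curves of both cytosolic subunits rise left of 0 around their medians of -0.17, and that of ribosome biogenesis further left. At its median of 0.09 the curve of the mitochondrial genes lies to the right of that of all tested genes, whose median is 0.03. The mitochondrial curve ends at 0.63, whereas that of all tested genes runs on.

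Regulators of ribosome production gave a mixed picture. Of 26 tested genes of mTORC1, the S6 kinases and the Myc network, 10 were called lower and 4 higher, with a median of -0.00. Myc had 4.67, 4.66, 4.69, 4.66, 4.56 and 4.47 in HighThreat animals, against 5.63, 5.67 and 5.59 in LowThreat pools, a difference of -1.01 (SE 0.057, adjusted p = 2.7e-08) with the groups far apart. Mtor itself fell by 0.32 (adjusted p = 1.2e-04), and Pdcd4, an inhibitor of the helicase Eif4a, by 1.36 (adjusted p = 3.0e-08). Larp1 gave -0.12 (adjusted p = 0.121), and Eif4ebp1, an mTORC1 target, rose by 0.32 (adjusted p = 9.7e-05). The kinase gene Rps6kb1 has no probe set naming it alone. All of these are mRNA levels, and activity of the kinases was not measured.

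**Figure D5:**
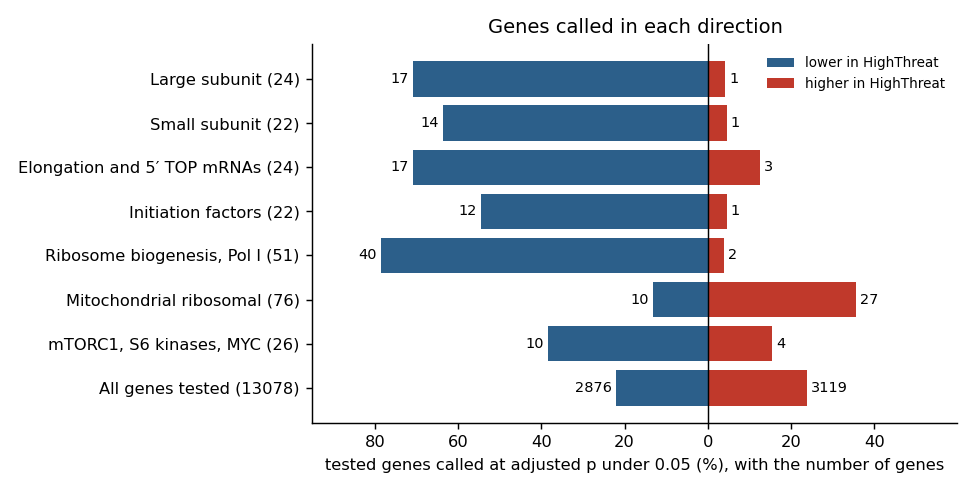
Percent of tested genes called lower (bars to the left of 0) and higher (bars to the right) in HighThreat at an adjusted p under 0.05, with the number of genes beside each bar and the number tested in parentheses. Ribosomal proteins and ribosome biogenesis extend mainly to the left, mitochondrial ribosomal proteins mainly to the right, and all 13078 genes are near balance.

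Marker mRNAs of other cell types also differed between the groups. Beside the counts of markers stand 22.0% of all tested genes called lower and 23.8% called higher. Itgam, which encodes the selected antigen CD11b, was 8.50 ± 0.070 in HighThreat (SD, n = 6) and 7.93 ± 0.026 in LowThreat (SD, n = 3). The myeloid gene Cd14 was 12.13 ± 0.030 in HighThreat and 11.54 ± 0.050 in LowThreat. Both are among 13 tested monocyte and macrophage markers, of which 7 were called higher and 3 lower. The means of that list overlapped, with 8.72 to 8.79 in HighThreat animals and 8.62 to 8.76 in LowThreat pools. Of 13 tested B cell markers 12 were called lower, with mean log2 values of 5.64 to 5.99 in HighThreat animals against 7.48 to 7.68 in LowThreat pools. Natural killer cell markers were lower in 10 of 11, with means of 3.82 to 4.00 in HighThreat against 5.44 to 5.60 in LowThreat. T cell markers were lower in 8 of 11 (4.03 to 4.07 in HighThreat, 4.38 to 4.43 in LowThreat), and dendritic cell markers in 8 of 10 (5.12 to 5.16 in HighThreat, 5.93 to 6.03 in LowThreat). Granulocyte and precursor markers were higher in 13 of 14, with means of 9.96 to 10.40 in HighThreat against 8.57 to 8.72 in LowThreat.

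The B cell gene Cd79a was 6.57 ± 0.19 in HighThreat (SD, n = 6) and 8.88 ± 0.075 in LowThreat (SD, n = 3), and the natural killer cell gene Gzma was 4.81 ± 0.21 in HighThreat and 7.92 ± 0.25 in LowThreat. Of markers with a probe set of their own, 1 of T cells, 2 of erythroid cells and 1 of proliferation lay under the filter value, and every other marker in these lists lay above it. Proliferation markers were higher in 8 of 10, with means of 6.35 to 6.93 in HighThreat against 5.70 to 5.80 in LowThreat. Erythroid markers were higher in 1 of 3. In bulk RNA of a selected population, fewer cells of a type and less RNA per cell cannot be told apart. The part of these shifts in the lower ribosomal protein signals was not tested. The 3′ minus 5′ difference of beta-actin probe sets, a measure of RNA integrity, also differed, with 0.357 ± 0.034 in HighThreat (SD, n = 6) and 0.472 ± 0.063 in LowThreat (SD, n = 3; two-sided exact permutation p = 0.0238, the smallest possible being 0.0119), and its part was not tested either. For Gapdh the difference was -0.071 ± 0.088 in HighThreat and -0.035 ± 0.052 in LowThreat (exact permutation p = 0.512).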

How the data were processed

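The authors deposited a single table of log2 values for probe sets, for which the submitters' processing notes name RMA, its version and settings not given in the sources used here. That the scale is log2 was read from the range of the values, 0.607 to 13.567; array medians lay between 3.19 and 3.22. RMA equalises the arrays, so a change in total RNA per cell is not visible, and it gives no detection calls. The 9 arrays are separate animals or pools, and their number limits the precision. No batch is labelled.

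Gene names came from the platform annotation, updated to RefSeq symbols (GRCm38.p6): 34945 of 45037 probe sets name 1 gene, 932 several and 9160 none. Of the 34945, 34741 matched and 204 kept the platform's symbol. Each gene used the probe set with the highest mean over all arrays, and genes with a mean of at least the 40th percentile, 2.66, were tested. HighThreat minus LowThreat was fitted with limma 3.58.1 in R 4.3.3 (lmFit, eBayes), two-sided, with Benjamini-Hochberg adjustment at 0.05. SE is limma's moderated standard error. Probe sets shared between genes were read from a fit of every probe set on its own. The members, lists and tests were chosen with earlier results of these data known, so neither the counts nor the lists are independent evidence. Named genes are the 8 largest rises and falls among called members, the 2 smallest differences per subunit, genes fixed by role, and per list the 2 smallest p-values, the highest mean and fixed genes; the others named were picked after their values were seen. On simulated data 200 of 13078 genes were changed, 50 at each size. Of those changed by 0.25, 36% were recovered, and 100% of those changed by 0.5, 1 or 2, with 8 false calls. In the data 45.8% of tested genes were called, which makes the adjustment less strict than in the simulation. The 36% is therefore no measure of recovery in these data.

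Alternatives covered filters, choice of probe set, normalization, array weights, pooling, a replicate block, each array left out and a stricter threshold. The arrays were fitted as unpaired. Deviations of same-numbered animals and pools correlated at 0.149, -0.152 and -0.029, and those of differently numbered ones at -0.11 to 0.158. With 3 pools these values cannot decide whether the numbers pair the arrays.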

Additional observations from a re-analysis of the deposited data

How the results depend on the processing

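Both subunit medians stayed below 0 under every alternative run. Of 164 recomputed summary values, 150 stayed within the margins set and 14 moved. Of 506 recomputed differences of named ribosomal genes, 479 kept direction and call, 22 lost the call, 3 gained it and 2 reversed. The small subunit median was -0.14 after quantile normalization and -0.14 after centring. Testing every probe set on its own counts probe sets in place of genes: 29 lower in the large subunit, 32 lower and 2 higher in the small subunit, and 10749 called in all. At an adjusted p under 0.01, 11 large subunit genes were called lower and 0 higher. With HighThreat animals averaged in number pairs, 0 large subunit genes were called higher. With genes read from shared probe sets added, 30 large subunit genes were called lower, and with a mean of at least 9 alone, 0 were called higher in either subunit; both settings were chosen after seeing the data. The 0 counts are of a single gene each, Rpl14 in the large subunit and Rps4l in the small one.

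Leaving out each array in turn gave 11 to 16 large subunit genes called lower and 0 to 1 higher, with a median of -0.19 to -0.15. For the small subunit it gave 11 to 14 lower and 1 higher, with a median of -0.18 to -0.16, and 5310 to 5806 genes were called in all. Rps3 reversed to 0.010 (adjusted p = 0.885) with the mean of its probe sets, and Rps24 to 0.116 (adjusted p = 0.408) with probe sets of a single transcript preferred. The cause was not tested. Rpl41 gave -1.32 and Rps27l -0.19 (adjusted p = 0.0467) with such probe sets preferred, and Rpl13a -0.13 (adjusted p = 0.0714) with the mean of its probe sets. Rps19 was lost under quantile normalization (adjusted p = 0.0613). With the replicate block, 15 large and 14 small subunit genes were called lower and 5945 genes in all. Small differences are limited by the number of arrays, and dim probe sets by the lack of detection calls.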
